A study of Mus musculus with 6 samples.

Results

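The genes described here repair DNA breaks by homologous recombination, unlink DNA interstrand crosslinks through the Fanconi anaemia pathway, or carry the checkpoint signal that accompanies both. The set lists 39 genes by function, and each was read through the probe set that names it alone and has the highest mean over the 6 arrays. Of these, 38 had such a probe set and 37 passed the filter on low signal, out of 13222 genes that passed it on the arrays. No probe set was paired with Xrcc2 alone, so it was not analysed here. Bard1, which encodes the partner of BRCA1 in a ubiquitin ligase, read 4.50 to 4.77 in controls and 4.50 to 4.69 in Sox2cKO, below the 40th percentile of all 6 arrays, and was not tested.

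The arrays measured tumour epithelial cells sorted from chemically induced benign skin papillomas of mice, 3 arrays per group, from 3 biological experiments. Sox2cKO mice carried K14CREER, a tamoxifen-activated Cre recombinase under the keratin 14 promoter of basal keratinocytes, and floxed Sox2 alleles (SOX2fl/fl), and they received tamoxifen for 1 week. Control mice had papillomas and 1 week of tamoxifen too. The sources used here do not give their genotype, the ages or sexes of the mice, the inducing chemicals or any pooling of tumours. Cells were sorted as Epcam-positive and alpha6 integrin-positive, without CD45, CD31 or CD140a. Values are log2 signal as deposited, differences are Sox2cKO minus control, and means are given ± SD with n = 3. A lower value in such a bulk sample can come from fewer cells of a kind or from less RNA per cell, which cannot be told apart.

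In homologous recombination a broken end is cut back to single-stranded DNA, which replication protein A covers first, and the strand then pairs with the sister chromatid, from which the missing stretch is copied. The Fanconi core complex attaches ubiquitin to FANCD2 and FANCI at a stalled fork, which opens the way for crosslink removal. Many of these genes are transcribed mostly around S phase, when a sister chromatid is present, so in tissue their RNA is known to rise and fall with the share of dividing cells. Chemically induced papillomas are tumours of keratinocytes in which basal cells divide.

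The labelled groups and cells were checked first. Sox2 read 7.19 to 8.31 in controls and 3.23 to 4.63 in Sox2cKO, with no overlap. The keratinocyte genes Krt14 (13.94 to 14.16) and Krt5 (13.32 to 13.45) were high on all 6 arrays. The sorted proteins' genes Itga6 and Epcam read 12.07 to 12.45 and 10.57 to 11.43, with differences of 0.09 and -0.46. Of the genes of excluded cells, Ptprc (CD45) read 4.58 to 5.51 and Pecam1 (CD31) failed the filter, while Pdgfra (CD140a) read 5.05 to 5.52 in controls and 5.49 to 7.25 in Sox2cKO. Of 11 fibroblast and pericyte markers 10 were higher in Sox2cKO, with a summed linear signal of 2363 to 4784 in controls and 4671 to 16328 in Sox2cKO, highest in Sox2cKO replicate 3. Of 11 leukocyte markers 6 passed the filter and summed signal was 456 to 483 in controls and 493 to 583 in Sox2cKO. Array values have no zero, so no marker of either list can be said to be absent. Of 5 Langerhans cell markers 4 were lower, with a summed signal of 1267 to 2152 in controls and 534 to 1212 in Sox2cKO. Of 6 suprabasal keratinocyte markers, the genes of cells that have left the dividing layer, all 6 were higher, with a median of 0.28, which turned to -0.11 against control replicate 1 alone. The part of these cell types in the results was not tested. Xist and Eif2s3y showed a female pattern in 2 control arrays, replicates 2 and 3, and in 0 Sox2cKO arrays, so that sex differed partly with group.

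No recombination or Fanconi gene passed the test. With limma, 0 of 37 had an adjusted p under 0.05, as had 0 (0%) of all 13222 genes, and the lowest adjusted p among the 37 was 0.999. Even so, 29 of the 37 had a lower mean in Sox2cKO, where 49.4% of all genes did, and their median difference was -0.12 against a median near 0 (0.0027) over all genes. In 5 of 37 the unadjusted limma p was under 0.05, all with lower values (1.29% of all genes), namely Rad54b, Rad51b, Rpa3, Brca1 and Palb2. These were also the 5 whose 3 Sox2cKO values all lay under the 3 control values (3.12% of all genes), and 0 had all 3 Sox2cKO values above (2.73%). In either direction, 354 of all 13222 genes reached that level. Leaving out 1 array changed both counts. Without control replicate 1 they were 4 of the 37 and 637 of all genes, without control replicate 2 they were 2 and 200, and without control replicate 3 they were 3 and 245. Without Sox2cKO replicate 1 they were 2 and 382, without Sox2cKO replicate 2 they were 4 and 632, and without Sox2cKO replicate 3 they were 8 and 525. With a sex covariate the group difference rests on 1 control array, replicate 1, so its counts are not given here. Every exact two-sided permutation test of 3 arrays against 3 is limited to p = 0.1 or higher.

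The intervals show what differences these arrays could have missed. For 21 of the 37 genes the 95% interval of the difference, from the limma fit, excluded a 1.5-fold change in either direction, and for 35 it excluded a 2-fold change. The 2 others were Rad54b and Dna2.

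**Figure D1:**
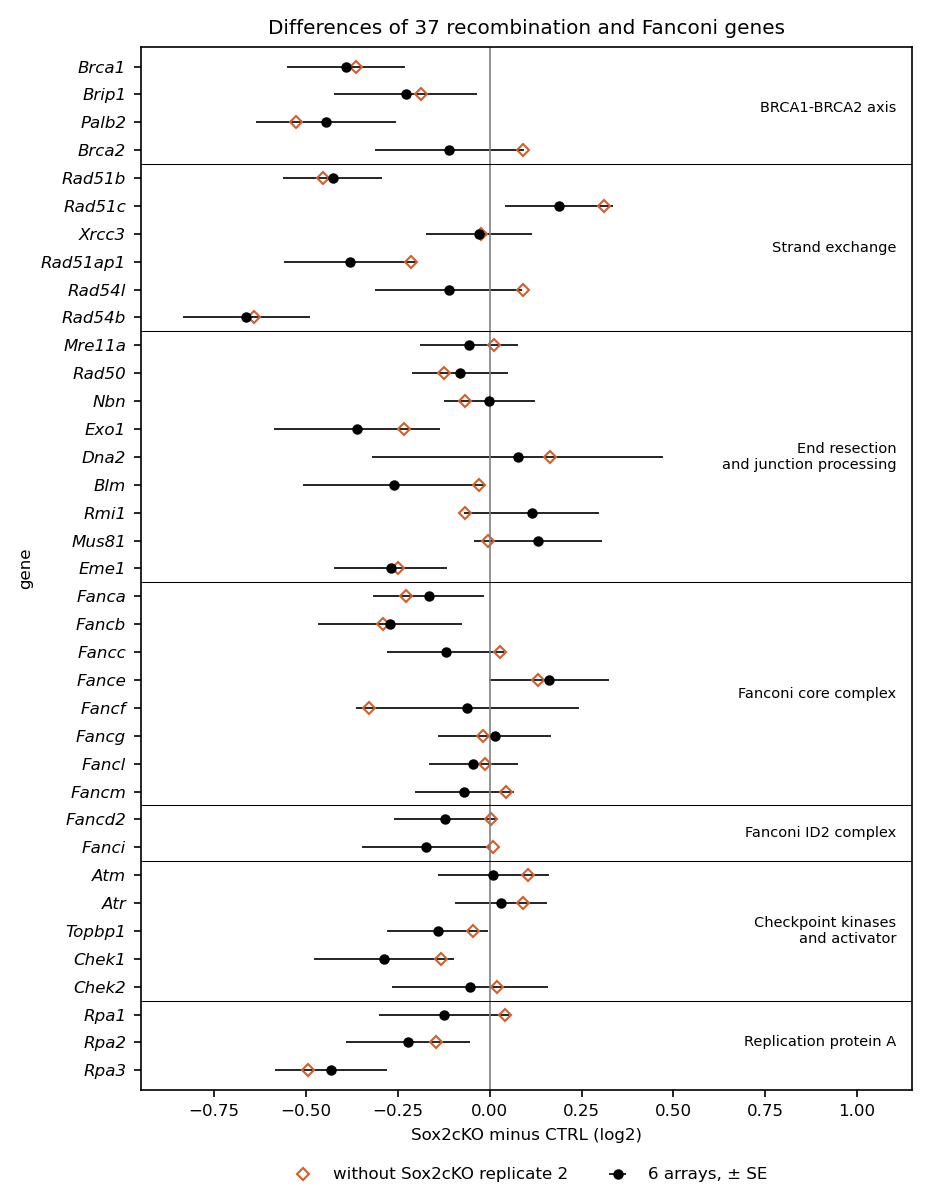
Sox2cKO minus CTRL difference (log2, x axis) of 37 recombination and Fanconi genes (y axis, by role), black points with SE from all 6 arrays and open diamonds without Sox2cKO replicate 2. Most points lie left of 0, Rad54b farthest at -0.66, and many of those nearer 0 move to it or past it in the diamonds.

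The BRCA1 to BRCA2 axis had the lowest median of the 7 roles, -0.31, with all 4 tested genes lower. Palb2, which bridges BRCA1 and BRCA2, read 6.22, 6.68 and 6.47 in control replicates 1 to 3 and 5.67, 6.17 and 6.18 in Sox2cKO replicates 1 to 3. The groups were 0.04 apart, and Sox2cKO replicate 1 was the lowest array. The means were 6.45 ± 0.23 and 6.01 ± 0.29, a difference of -0.45 (SE 0.19), or 1.36-fold lower. Brca1, the ubiquitin ligase that directs break ends towards recombination, read 7.25, 7.57 and 7.32 in controls and 6.79, 6.93 and 7.24 in Sox2cKO. Here the groups were separated by only 0.01, since Sox2cKO replicate 3 nearly reached control replicate 1. The difference was -0.39 (SE 0.16), 1.31-fold lower. Brip1, a helicase bound to BRCA1, overlapped, with 5.60 to 5.80 in controls and 5.19 to 5.90 in Sox2cKO. Brca2, which acts in the strand pairing step, differed by -0.11 (SE 0.20) and read low in a single Sox2cKO array, replicate 2 (7.52), with 7.90 to 8.24 in the other 5 arrays.

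Among the genes of strand exchange (Rad51b, Rad51c, Xrcc3, Rad51ap1, Rad54l and Rad54b) 5 of 6 were lower, with a median of -0.25. The largest difference of all 37 genes was that of Rad54b, one of a pair of DNA translocases of strand exchange. It read 5.50, 6.05 and 5.55 in controls and 4.96, 4.99 and 5.15 in Sox2cKO, so that all Sox2cKO arrays lay at least 0.34 below all controls. The difference was -0.66 (SE 0.17), 1.58-fold lower, with an interval of -1.07 to -0.26. The Sox2cKO values stood just above the 40th percentile of the arrays (4.90 to 4.94). Rad51b, which acts in the same step, read 5.63, 5.97 and 5.78 in controls and 5.44, 5.42 and 5.24 in Sox2cKO. Its groups were 0.19 apart, with a difference of -0.43 (SE 0.14). A further probe set of Rad51b gave the same order of groups, with 5.56 to 5.79 in controls, 4.77 to 5.17 in Sox2cKO and a difference of -0.66. It was under the 40th percentile on 1 array, Sox2cKO replicate 3 (4.77). Passing the filter thus needed control arrays, where it was higher, which limits it as a second reading.

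Rad51ap1, whose product stimulates strand pairing, narrowly overlapped. It read 7.55, 7.91 and 7.71 in controls and 7.44, 7.01 and 7.57 in Sox2cKO, a difference of -0.38 (SE 0.18). All 4 of its probe sets were lower (-0.38 to -0.20), and in 2 of them the groups did not overlap. Rad54l, the other translocase, differed by -0.11 and was low in Sox2cKO replicate 2 (6.93) and highest in Sox2cKO replicate 3 (7.67). Of its dimmer probe sets above the filter, groups did not overlap in one (-0.24) and overlapped in the other (-0.22). Rad51c, of the same step, went the other way, with 6.59 to 6.68 in controls, 6.59 to 7.06 in Sox2cKO and a difference of 0.19 (SE 0.15), and its second probe set, at 4.71 to 5.08 and 5.26 to 5.33, differed by 0.38. That probe set was under the 40th percentile on 2 control arrays and passed the filter with the Sox2cKO arrays, so it gives no independent reading of the direction. Xrcc3, the partner of RAD51C, differed by -0.03 (SE 0.14).

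**Figure D2:**
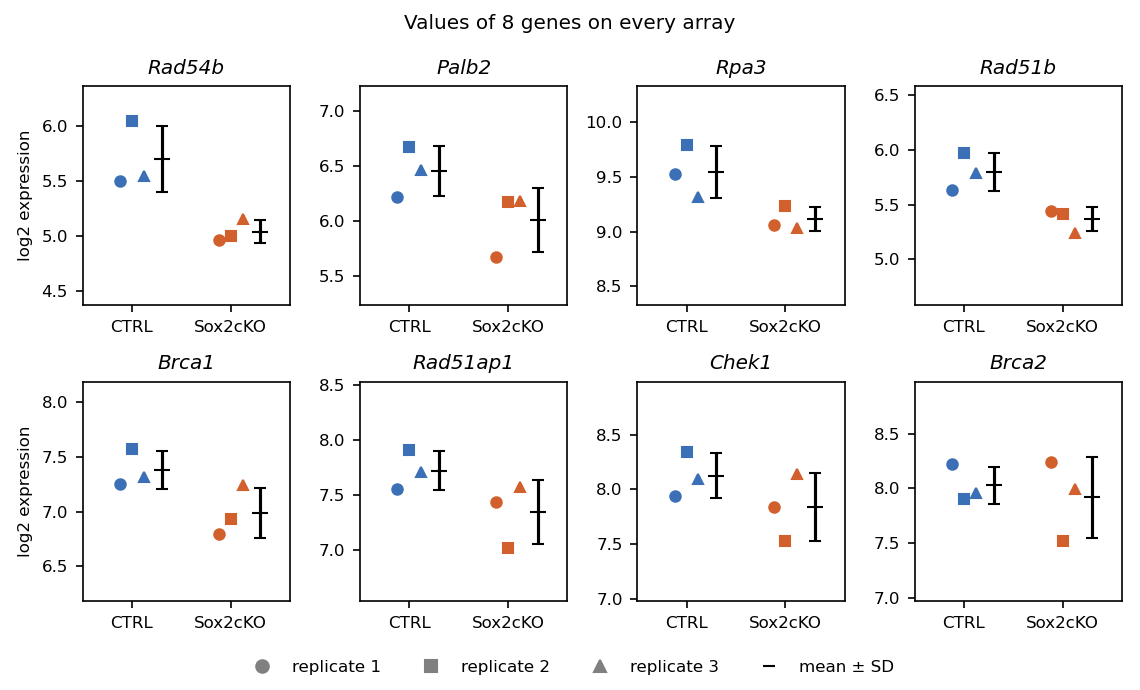
Log2 expression (y axis, each panel spanning 2 log2 units) of 8 genes in CTRL and Sox2cKO, with 1 symbol per replicate number and black bars for mean ± SD of 3 arrays. Rad54b, Palb2, Rpa3, Rad51b and Brca1 do not overlap between groups, Rad51ap1 overlaps narrowly, and in Chek1 and Brca2 the lowest point is Sox2cKO replicate 2 while the other arrays overlap.

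Replication protein A, the trimer that coats single-stranded DNA, showed its clearest difference in the smallest subunit. Rpa3 read 9.53, 9.79 and 9.32 in controls and 9.06, 9.24 and 9.04 in Sox2cKO, with groups 0.08 apart. The means were 9.54 ± 0.24 and 9.11 ± 0.11, a difference of -0.43 (SE 0.15), or 1.35-fold lower. Rpa2 overlapped, at 8.42, 8.91 and 8.57 in controls and 8.37, 8.26 and 8.61 in Sox2cKO, with a difference of -0.22 (SE 0.17). Rpa1, the large subunit, differed by -0.12 (SE 0.18), and its second probe set by 0.02.

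Genes for end resection and junction processing were divided, 6 of 9 lower, with a median of -0.06. Groups were apart in 0 of them, where 5.85% of all genes had groups apart in either direction. Exo1, an exonuclease of resection, read 7.03, 7.59 and 7.41 in controls and 6.82, 6.72 and 7.40 in Sox2cKO. Sox2cKO replicates 1 and 2 lay under all controls, but replicate 3 lay among them, and the difference was -0.36 (SE 0.23). Eme1, whose product forms a structure-specific nuclease with MUS81, showed a like order, at 6.54, 6.81 and 6.52 in controls and 6.17, 6.31 and 6.58 in Sox2cKO (-0.27, SE 0.15), while Mus81 itself differed by 0.13 (SE 0.17). The complex that first senses broken ends showed small differences, -0.06 for its nuclease Mre11a, -0.08 for its ATPase Rad50 and near 0 for its scaffold Nbn. The interval of Nbn was -0.29 to 0.29, and those of all 3 excluded a 1.5-fold change. The helicase gene Blm differed by -0.26 (SE 0.25), and its partner Rmi1 by 0.11 (SE 0.18). Dna2, a nuclease and helicase of resection, had the largest SE of the set (0.40), because control replicate 1 read 6.41 and the other 5 arrays 7.26 to 7.88. Its second probe set also had a difference of 0.08.

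In the Fanconi core complex 6 of 8 genes read lower (median -0.06). Groups were apart in 0 of them, and in 5.85% of all genes in either direction, so a list this short could hold 0 either way. Fancb read 6.26, 6.76 and 6.31 in controls and 5.88, 6.21 and 6.42 in Sox2cKO, a difference of -0.27 (SE 0.20), which overlapped. Fancb lies on the X chromosome, and control replicates 2 and 3 were the arrays with the female pattern. Against control replicate 1 alone, the control without that pattern, its difference was -0.09. Of the controls with the pattern, replicate 3 (6.31) read close to replicate 1 (6.26), and only replicate 2 (6.76) was high. The part of sex in this difference was not tested. Fanca was low in a single array, reading 6.89, 6.75 and 6.86 in controls and 6.39, 6.79 and 6.83 in Sox2cKO (-0.17, SE 0.15), and its second probe set differed by 0.09. Fancl, the ubiquitin ligase subunit, differed by -0.04 (SE 0.12), and Fancm, the translocase that anchors the complex to DNA, by -0.07 (SE 0.14). The subunit genes Fancc (-0.12), Fancf (-0.06), Fancg (0.01) and Fance (0.16) lay within 1 SE of 0.

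In the probe sets with the highest mean, the targets of the core complex shared a pattern in which a single array stood out. Fancd2 read 6.63, 6.58 and 6.60 in controls, 6.61 and 6.60 in Sox2cKO replicates 1 and 3, and 6.23 in Sox2cKO replicate 2. Fanci read 7.51, 7.52 and 7.47 in controls and 7.46, 6.96 and 7.56 in Sox2cKO. Their differences of -0.12 and -0.17 became near 0 (0.0028) and 0.01 without Sox2cKO replicate 2. A second probe set of Fancd2 above the filter had no such single array. It read 5.87, 5.87 and 5.63 in controls and 5.64, 5.55 and 5.67 in Sox2cKO (-0.17).

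The checkpoint genes had a median of -0.05, with 3 of 5 lower. The apical kinases were level, Atm at 0.01 (SE 0.15) and Atr at 0.03 (SE 0.13). A second probe set of Atr above the filter, at 5.38 to 6.17 in controls and 4.99 to 5.55 in Sox2cKO, differed by -0.46, so the 2 readings of this gene disagree. Topbp1, the activator of ATR, read 10.13, 10.16 and 10.26 in controls and 10.03, 9.85 and 10.25 in Sox2cKO (-0.14, SE 0.14). Chek1, the kinase downstream of ATR, read 7.94, 8.35 and 8.09 in controls and 7.84, 7.53 and 8.14 in Sox2cKO (-0.29, SE 0.19). Sox2cKO replicate 3 thus exceeded 2 of the 3 controls. Its other probe sets above the filter differed by -0.05 and -0.25, and the mean over its probe sets by -0.19. Chek2, the kinase downstream of ATM, differed by -0.05 (SE 0.21) and was highest in Sox2cKO replicate 3 (8.12).

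**Figure D3:**
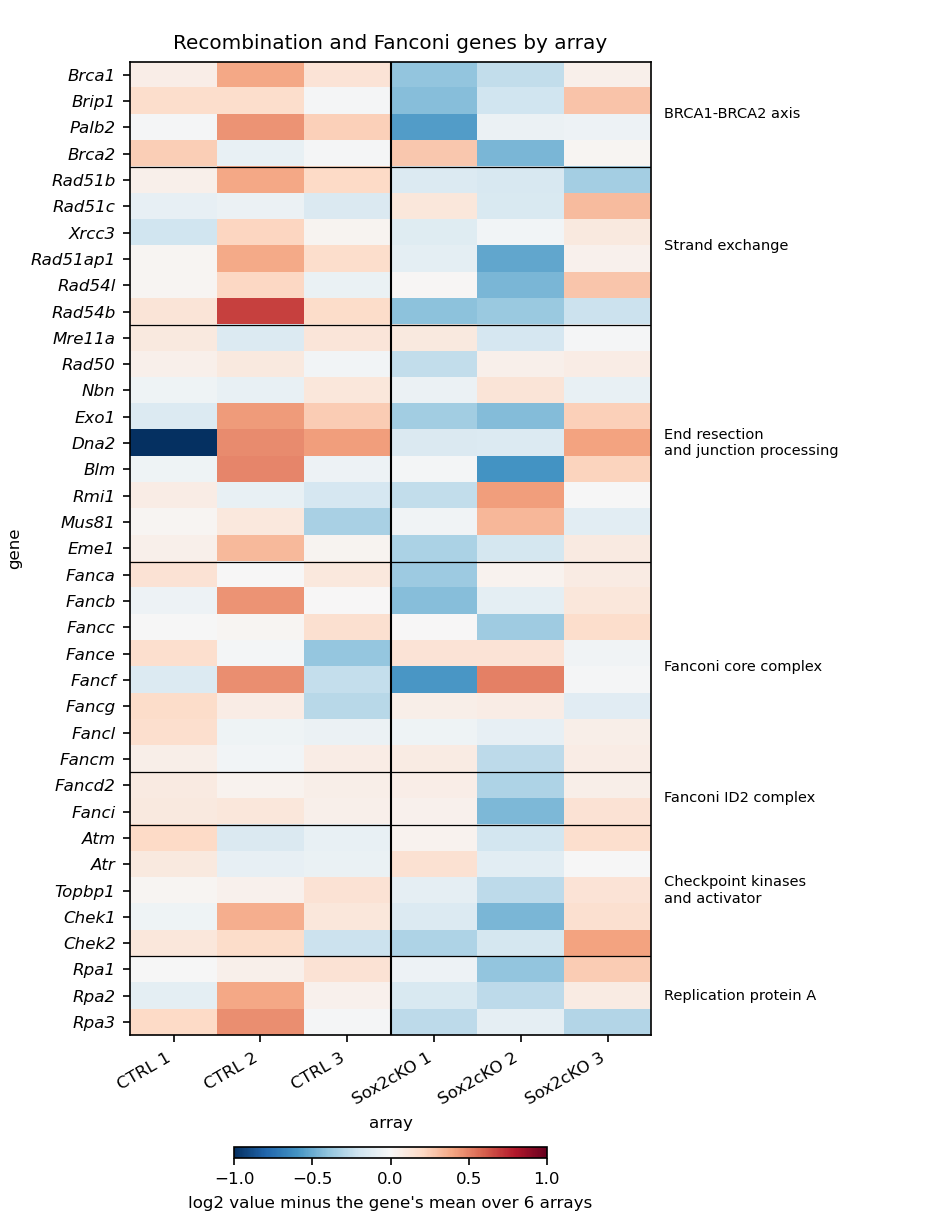
Log2 value minus the gene's mean over 6 arrays (colour, red above and blue below) for 37 genes (rows, by role) on 6 arrays (columns). Blue is most frequent in Sox2cKO replicates 2 and 1, and red in control replicate 2, while Sox2cKO replicate 3 resembles the controls in most rows.

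Read by array, the set was low on 2 of the 3 Sox2cKO arrays rather than on all of them. The mean deviation of the 37 genes from their own 6-array means was 0.02, 0.18 and 0.02 in control replicates 1 to 3 and -0.13, -0.16 and 0.08 in Sox2cKO replicates 1 to 3. Sox2cKO replicate 2 was the lowest array for 18 of the 37 genes and Sox2cKO replicate 1 for 11, where each was lowest for 18.0% and 18.3% of all genes. Control replicate 2 was the highest array for 15 of the 37 and the lowest for 0, where it was highest for 23.5% and lowest for 19.8% of all genes. Without Sox2cKO replicate 2, 23 of 37 genes read lower (52.7% of all genes then), and the median was -0.029. Without Sox2cKO replicate 3, 30 were lower, with a median of -0.24, and in 15 the groups did not overlap, where 16.9% of all genes did not overlap with 2 arrays against 3. Without control replicate 1 the groups did not overlap in 8, where 18.0% of all genes did not. Both Sox2cKO arrays low in the set were also the 2 highest of all 6 in suprabasal markers, whose mean deviation was 0.28, -0.42 and -0.39 in control replicates 1 to 3 and 0.40, 0.30 and -0.17 in Sox2cKO replicates 1 to 3. Fibroblast and pericyte markers had another order, -0.30, -0.20 and -0.997 in controls and -0.04, 0.14 and 1.40 in Sox2cKO.

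Replicate numbers, which the labels give to both groups, were used to set arrays side by side. In 9 of 37 genes the Sox2cKO array was lower in all 3 pairs (12.7% of all genes), and in 0 it was higher in all 3 (12.1%). The 9 were Brca1, Palb2, Rad51b, Rad51ap1, Rad54b, Mre11a, Exo1, Topbp1 and Rpa3. The pair differences of Rad54b were -0.54, -1.05 and -0.40 and those of Palb2 -0.54, -0.51 and -0.29, whereas Brca1 had -0.46, -0.64 and -0.08. Against control replicate 1 alone, which compares arrays without the female pattern, 31 of 37 genes read lower (52.7% of all genes), and the median was -0.09. Rad54b then differed by -0.46, Rpa3 by -0.41, Rad51b and Brca1 by -0.26 each and Palb2 by -0.21. The median of the strand exchange genes was then -0.14 and that of replication protein A -0.06.

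Genes of cell division varied over the arrays in a similar order. The mean deviation of 25 genes of S phase replication was 0.00, 0.20 and 0.10 in control replicates 1 to 3 and -0.03, -0.33 and 0.05 in Sox2cKO replicates 1 to 3. That of 25 genes of G2 and mitosis was -0.04, 0.35 and 0.12 in controls and -0.15, -0.42 and 0.14 in Sox2cKO. In both lists, as in the recombination set, control replicate 2 was highest and Sox2cKO replicate 2 lowest. Control replicate 2 was also highest in the other recombination, other checkpoint, mismatch repair and base excision repair lists described below. In each list 24 of 25 genes read lower in Sox2cKO (medians -0.21 and -0.26), and 0 passed the test. Against control replicate 1 alone 19 and 18 read lower, with medians of -0.10 and -0.09, and leaving out Sox2cKO replicate 2 gave medians of -0.10 and -0.14. Groups were apart, lower in Sox2cKO, in 2 of 25 S phase genes and 3 of 25 genes of G2 and mitosis (3.12% of all genes). The genes named next were picked as those of smallest unadjusted limma p in each list. Tk1 (-0.51), the thymidine kinase of S phase, and the mitotic genes Nusap1 (-0.35), Cdc25c (-0.61) and Kif11 (-0.25) had groups apart. The replication genes Pold1 (-0.44) and Gins2 (-0.28) overlapped narrowly. As checks outside that pick, the proliferation marker Mki67 read 10.67 to 11.21 in controls and 10.20 to 10.87 in Sox2cKO (-0.42, SE 0.22). The replication clamp Pcna differed by -0.04 (SE 0.13). The part of division in the differences of the recombination genes was not tested. Rad51b and Rpa3, like both division lists, were highest in control replicate 2 (5.97 and 9.79). They were lowest in Sox2cKO replicate 3 (5.24 and 9.04), where the division lists were not, though Rpa3 read nearly as low in Sox2cKO replicate 1 (9.06). Sox2cKO replicate 3 was the lowest array for only 3 of the 37 genes, where it was lowest for 19.2% of all genes. Fibroblast and pericyte markers were highest on Sox2cKO replicate 3, and their part in Rad51b and Rpa3 was not tested.

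**Figure D4:**
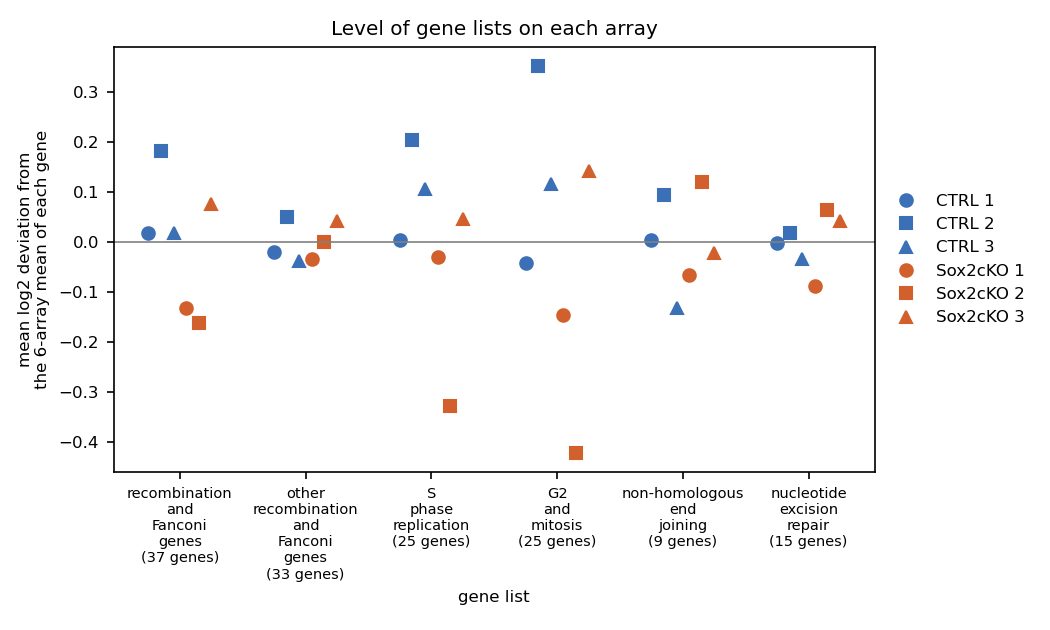
Mean log2 deviation from each gene's 6-array mean (y axis) for 6 gene lists (x axis) on each array, blue for CTRL and orange for Sox2cKO, with 1 symbol per replicate number. The recombination set, S phase and G2 and mitosis have CTRL 2 on top and Sox2cKO 2 at the bottom, while the 3 other lists shown lie between -0.13 and 0.12. Not shown are mismatch repair, base excision repair and the other checkpoint genes, whose median differences were -0.13, -0.09 and -0.06. CTRL 2 was the highest array in these lists too (0.10, 0.12 and 0.18), and in the other recombination and Fanconi genes (0.05). Sox2cKO 2 was not the lowest array in any of them.

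The other recombination and Fanconi genes were more evenly split than the set or the other checkpoint genes. Over all genes 49.4% read lower. Of 33 other recombination and Fanconi genes tested, 19 were lower and 14 higher (median -0.02), and 0 passed the test. The median turned to 0.02 against control replicate 1 alone, with 15 lower, and to 0.03 without control replicate 2. Ube2t, the ubiquitin-conjugating enzyme that works with FANCL, was the clearest lower gene, at 6.98 to 7.36 in controls and 6.68 to 6.83 in Sox2cKO (-0.37, SE 0.14). Slx1b, a nuclease subunit, was higher in every Sox2cKO array, at 4.79 to 4.92 and 5.01 to 5.50 (0.43, SE 0.15), near the filter level. It was under the 40th percentile on 2 control arrays and passed the filter with the Sox2cKO arrays. Its direction is therefore no independent reading. Mad2l2, a subunit of a translesion polymerase, differed by 0.30. Of 21 other checkpoint and break-signalling genes 15 read lower (median -0.06), and 0 passed the test. Their median turned to 0.03 against control replicate 1 alone and to 0.02 without Sox2cKO replicate 1, with 10 lower in each. Clspn, the adaptor that passes the signal from ATR to CHK1, read 8.01 to 8.06 in controls and 7.47 to 7.90 in Sox2cKO (-0.31, SE 0.14), and the fork protection genes Timeless (-0.21) and Tipin (-0.16) overlapped.

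Other repair routes were described in the same way. Genes of non-homologous end joining, which rejoins ends without a template, had a median of 0.01 with 4 of 9 lower (-0.02 and 6 against control replicate 1 alone), and the differences of the genes Xrcc5, Paxx and Lig4 were -0.09, 0.08 and 0.25. Nucleotide excision repair had a median of 0.02 with 6 of 15 lower, led by the damage sensor gene Ddb2 (-0.32, SE 0.18), with -0.12 for Ercc2 and 0.19 for Gtf2h1, subunits of the factor that opens the helix. In base excision repair 11 of 16 were lower (median -0.09), and in 3 of 16 the groups were apart, all lower (3.12% of all genes). Among these were the uracil glycosylase gene Ung (-0.37, SE 0.20), by only 0.001, and Parp2 (-0.16, SE 0.11). The glycosylase gene Neil3 (-0.27) overlapped. In mismatch repair 6 of 7 were lower (median -0.13), with Lig1, the ligase of replication, at -0.28 (SE 0.22), Pms1 at -0.20 and Pms2 at -0.21. None of these 4 lists had a gene that passed, and the differences between lists were not tested.

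Several probe sets allowed a check within genes. Of the 22 genes with more than 1 probe set above the filter, 16 had all of them on the same side of 0 and 6 had both signs, which were Atm, Atr, Fanca, Fancc, Rmi1 and Rpa1. The second probe set of Brca1 above the filter read 5.27 to 5.55 in controls and 5.07 to 5.44 in Sox2cKO, which overlapped, with a difference of -0.13. Averaged over its probe sets Brca1 differed by -0.26. Rad54b, Palb2 and Rpa3 had a single probe set each above the filter, so no second reading was at hand.

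**Figure D5:**
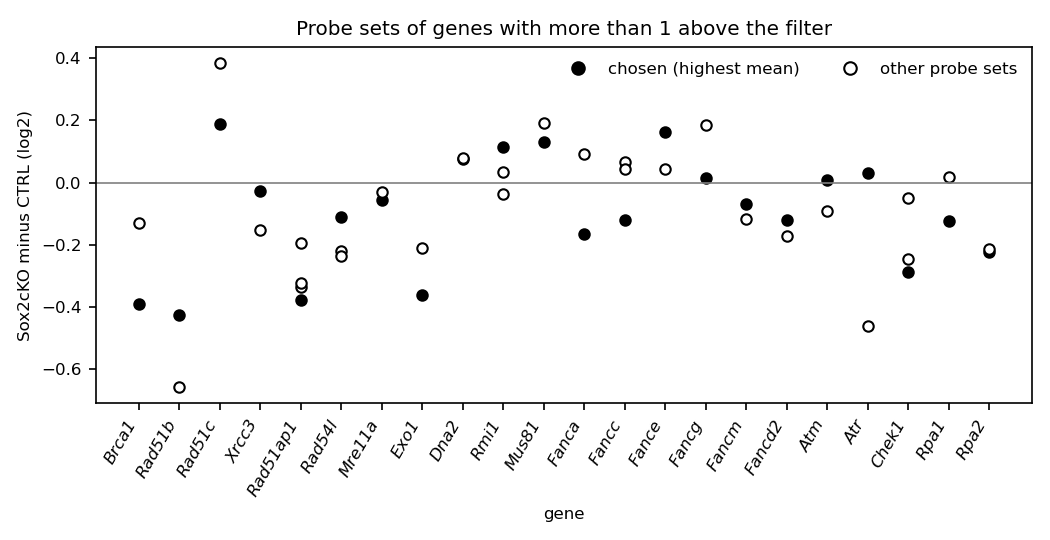
Sox2cKO minus CTRL difference (log2, y axis) of every probe set above the filter for the 22 genes with more than 1 (x axis), filled for the probe set with the highest mean and open for the others. Rad51b and Rad51ap1 lie below 0 in all their probe sets, while the probe sets of Atr lie at 0.03 and -0.46.

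The DNA before the starts of these genes was searched for short letters that cell cycle factors are known to bind. The windows are the 250 bases before each start in RefSeq (GRCm38.p6), and 33 of the 39 genes had one. Rad54b, Xrcc2, Rad50, Nbn, Exo1 and Fancd2 had none. The letters were TTTCCCGC, TTTGGCGC, TTTCGCGC or TTTGCCGC for E2F, TTTGAA or TTCGAA for the cell cycle homology region (CHR), and CCAAT, on either strand, with no overlap between the 3 kinds required or excluded. CCAAT was found in 20 of 33 genes (60.6%), against 37.5% of all 27025 genes with a window and 39.9% of those tested on the arrays. E2F letters were found in 5, which were Bard1, Brca2, Fancg, Topbp1 and Chek2 (15.2%, against 2.16% of all genes and 3.76% of those tested). CHR letters were found in 2, Bard1 and Atr (6.06%, against 19.6% of all genes and 14.6% of those tested). For comparison, 7 of 21 S phase genes held E2F letters, and 9 of 20 genes of G2 and mitosis held CHR letters. CCAAT was found in 61.9% of the S phase genes and 90.0% of those of G2 and mitosis, so the share among the recombination genes was no higher than in these lists. The 4 tested genes with E2F letters had differences of -0.14 to 0.01, and the 28 without them -0.45 to 0.19. Rad54b, which has no window, is in neither group.

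Windows are printed for 4 of the 5 genes whose groups did not overlap, and for Chek2, which did overlap, as the one with both E2F letters and CCAAT. Capitals mark the letters searched (CCAAT reads ATTGG, and TTTCCCGC reads GCGGGAAA, on the other strand), and a window in lower case throughout held none. They are Brca1 at chr11:101551956-101552205 (minus strand), Palb2 at chr7:122132947-122133196 (minus), the first of the 2 windows of Rad51b at chr12:79297032-79297281 (plus), Rpa3 at chr6:8259142-8259391 (minus) and Chek2 at chr5:110839733-110839982 (plus), each 5′ to 3′ up to the base before the start.
Brca1: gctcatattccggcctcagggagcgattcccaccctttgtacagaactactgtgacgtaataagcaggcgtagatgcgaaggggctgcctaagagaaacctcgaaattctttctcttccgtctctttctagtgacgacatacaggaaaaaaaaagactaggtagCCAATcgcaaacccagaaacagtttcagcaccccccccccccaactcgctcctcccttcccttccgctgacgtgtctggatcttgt
Palb2: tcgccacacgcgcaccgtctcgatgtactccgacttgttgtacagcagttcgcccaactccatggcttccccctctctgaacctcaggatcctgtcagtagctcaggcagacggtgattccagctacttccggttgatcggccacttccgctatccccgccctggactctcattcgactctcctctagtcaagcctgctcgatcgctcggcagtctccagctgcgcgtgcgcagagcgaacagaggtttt
Rad51b: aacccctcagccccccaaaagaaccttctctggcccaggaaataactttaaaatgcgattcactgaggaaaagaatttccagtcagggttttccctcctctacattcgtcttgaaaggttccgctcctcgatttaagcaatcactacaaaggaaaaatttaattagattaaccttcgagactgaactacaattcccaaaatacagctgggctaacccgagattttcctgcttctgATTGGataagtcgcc
Rpa3: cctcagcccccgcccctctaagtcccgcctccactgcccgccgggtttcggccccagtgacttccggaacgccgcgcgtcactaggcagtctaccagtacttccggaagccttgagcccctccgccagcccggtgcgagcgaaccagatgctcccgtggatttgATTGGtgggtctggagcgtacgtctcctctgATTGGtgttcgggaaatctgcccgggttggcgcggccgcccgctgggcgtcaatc
Chek2: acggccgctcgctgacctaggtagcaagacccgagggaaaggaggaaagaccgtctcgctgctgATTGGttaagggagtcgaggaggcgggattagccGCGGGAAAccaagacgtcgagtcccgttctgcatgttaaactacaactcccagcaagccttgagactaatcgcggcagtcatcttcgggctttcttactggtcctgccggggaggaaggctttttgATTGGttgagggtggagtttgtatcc
Brca1 held 1 CCAAT, Rad51b 1 in this window and Rpa3 and Chek2 2 each, while Palb2 held none of the letters. Of the printed genes with groups apart, all but Palb2 thus held CCAAT, which was also found in 39.9% of all genes tested. None of them held E2F or CHR letters. A match describes the letters only.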

How the data were processed

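Tumour epithelial cells were measured on 6 Affymetrix Mouse Genome 430 2.0 arrays, 3 per group, named by the labels. The deposited values are log2 signal per probe set, read so from their range. R 2.14.0 is named per the submitters' processing notes. How background, summary and normalization were handled is not given in the sources used here. Array medians lay between 5.42 and 5.46. Of 45101 probe sets, 34945 had 1 symbol in the platform annotation. The filter kept probe sets above the array's 40th percentile on 3 or more arrays, and 1 was tested per gene (highest mean over 6 arrays). A gene could pass through the group where it was high. Groups were compared with limma 3.58.1 in R 4.3.3 (two-sided, Benjamini-Hochberg over all genes, threshold 0.05), and lists were described by counts and medians. The fit was tested on simulated data. The number of arrays limits precision.

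Members and lists were chosen with earlier results of these data known. Named were all members, checks, and in each other list up to 3 genes of smallest unadjusted p, with every array's value for members with groups apart, unadjusted p under 0.05, or the 2 largest differences of a role. Genes outside this rule were named after their values were seen. Deviations from the group means correlated across genes between arrays of equal replicate number (0.288, 0.206 and 0.211), each over the 0.1 set for pairing, so the fit with that number as a block is an alternative. The labels do not say what a number marks. The other alternatives were no filter, the mean of a gene's probe sets, quantile normalization, 16 added on the linear scale, trended robust variances, a sex covariate and leaving out each array. No 2 arrays held identical values (0 pairs). The labels name 3 biological experiments but not separate animals, so p-values measure only the spread between these arrays.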

Additional observations from a re-analysis of the deposited data

How the results depend on the processing

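Over 13 alternatives no recombination or Fanconi gene passed the threshold (0 of 37 in each, 0 of 38 without the filter), with a lowest adjusted p of 0.775 without control replicate 1. Over all genes 0 passed, or 0 to 5 when 1 array was left out (5 without control replicate 1). The sex covariate is not part of this count over all genes. With the female pattern only in controls, its group difference is Sox2cKO minus control replicate 1 alone. With the replicate block 5 of 37 again had an unadjusted p under 0.05 and the lowest adjusted p was 0.884, so pairing changed no call, while the count at that level over all genes went from 354 to 656. Between 23 and 31 members were lower in every alternative, and the median lay between -0.24 and -0.029 when 1 array was left out, the 2 ends being without Sox2cKO replicates 3 and 2. The count at an unadjusted p under 0.05 was 3 with trended robust variances (326 of all genes). Groups were apart in 8 members (7 lower) with the mean of all probe sets (6.32% of all genes) and in 5 to 15 with 1 array left out, against 10.8% to 20.1% of all genes. Signs turned for 12 members without Sox2cKO replicate 2, 8 without Sox2cKO replicate 1, 8 with the sex covariate, 5 without control replicate 2 and 0 to 3 in the others. Rad54b, Rad51b, Rpa3, Brca1 and Palb2 kept their sign in all 13. Rad54b ranged from -0.76 to -0.46. Dna2 ranged from -0.41 without control replicate 1 to 1.04 with the sex covariate, against 0.08. The causes were not tested. With 16 added on the linear scale Rad54b differed by -0.48.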
